A study of Mus musculus with 14 samples.

Results

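The cells described here are 10 of 14 single Tomato-positive cells from adult mouse bone, chosen by their level of the Prrx1 transcript. The 5 Prrx1-high cells (cells 1, 3, 7, 9 and 13) held Prrx1 at 4 or more, and the 5 Prrx1-low cells (cells 2, 5, 11, 12 and 14) held it below 2. Cells 4, 6, 8 and 10 lay between these limits and were left out of the contrast. Levels are FPKM values (fragments per kilobase of transcript, scaled to the size of the library) on a log2 scale. Its distribution is nearly the same in every cell, so a value places a gene within its own cell. The cells differ at the low end, with 7304 (cell 10) to 8027 (cell 13) of 9558 rows above 0. A difference of 1 is 1 log2 unit. A gene is called detected at a value of 1 or more.

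Both groups came from animals of one kind. Every mouse was an adult Prrx1-CreERT;Tomato mouse of the C57BL/6 strain that had received tamoxifen at 2 mg per 30 g once daily for 3 days. Tamoxifen activates the Cre recombinase in cells that are using the Prrx1 regulatory sequence of the transgene, and Cre then switches on the Tomato reporter, which all descendants keep. Tomato therefore records past use of that sequence, whereas the transcript level used here is that of the endogenous gene at the time of picking. The labels do not say which Prrx1 fragment drives Cre, how long after tamoxifen the bones were taken, or from how many mice. The tibia, radius and ulna were flushed free of marrow and digested, and sorted red cells were picked one at a time under the microscope.

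Prrx1 encodes a homeodomain transcription factor, which binds DNA through a helix-turn-helix fold that favours AT-rich sites. It marks the mesenchyme of the developing limb bud, from which the cartilage, bone, tendon and connective tissue of the limb skeleton derive. In adult bone it is associated with stromal and progenitor cells, and its paralogue Prrx2 overlaps with it in the embryonic limb.

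The libraries carry no labelled contrast. All 14 cells share 1 label group and no animal is named, so cells are not replicates of a condition. No test was run and no p-value is given; the values describe these cells only. Depth is unknown because the table holds no counts.

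Prrx1 (ENSMUSG00000026586, chr1:163245119-163313710, minus strand, GRCm38) was at 7.31, 5.98, 4.26, 5.06 and 4.62 in cells 1, 3, 7, 9 and 13. In cells 2, 5, 11, 12 and 14 it was at 0.61, 1.45, 1.11, 0.52 and 0.59. These values chose the groups and are not a finding. At the upper limit, cell 7 lay just inside at 4.26 and cell 4 just outside at 3.82. At the lower limit, cell 5 lay just inside at 1.45 and cell 6 just outside at 3.04.

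The 4 sequences that follow are shown because homeodomain proteins of this class favour the 6-base core TAATTA. They come from RefSeq (GRCm38.p6) and run 5′ to 3′, with the core in capitals. For Prrx1 and Cd200 the 250 bases before the RefSeq start are given. For Sh3gl1 and Alg3, the called genes described later whose upstream windows hold the core, only the stretch around it is given. Windows are upstream of a RefSeq start, which can differ from the gene bounds of the GENCODE annotation. The Alg3 stretch lies inside those bounds (chr16:20605374-20611735), and the Prrx1 window overlaps the end of the Prrx1 gene given above.
Prrx1, chr1:163313651-163313900, minus strand: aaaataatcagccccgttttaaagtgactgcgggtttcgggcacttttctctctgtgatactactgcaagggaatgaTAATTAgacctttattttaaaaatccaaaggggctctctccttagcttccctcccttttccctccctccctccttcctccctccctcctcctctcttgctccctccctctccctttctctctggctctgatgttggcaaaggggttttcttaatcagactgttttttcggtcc
Cd200, chr16:45409054-45409303, minus strand: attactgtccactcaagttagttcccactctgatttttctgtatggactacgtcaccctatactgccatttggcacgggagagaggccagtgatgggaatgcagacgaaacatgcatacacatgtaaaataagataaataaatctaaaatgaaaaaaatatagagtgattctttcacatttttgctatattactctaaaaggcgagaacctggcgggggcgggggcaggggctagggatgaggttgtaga
Sh3gl1, chr17:56036861-56036909, minus strand: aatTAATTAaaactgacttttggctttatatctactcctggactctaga
Alg3, chr16:20610844-20610929, minus strand: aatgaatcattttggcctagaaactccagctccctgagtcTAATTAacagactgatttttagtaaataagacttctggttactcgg

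The core TAATTA reads the same on both strands, so 1 search covered both. In the Prrx1 window it occurred once, beginning 173 bases before the start. It was absent from the Cd200 window. Among 7367 genes of the table with a window, 3.01% held the core in at least 1 of their windows. It was found in 1 of 16 called genes higher in Prrx1-high cells (6.25%, Sh3gl1) and in 1 of 18 called lower (5.56%, Alg3). A match is a description of letters and not evidence of binding.

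**Figure D1:**
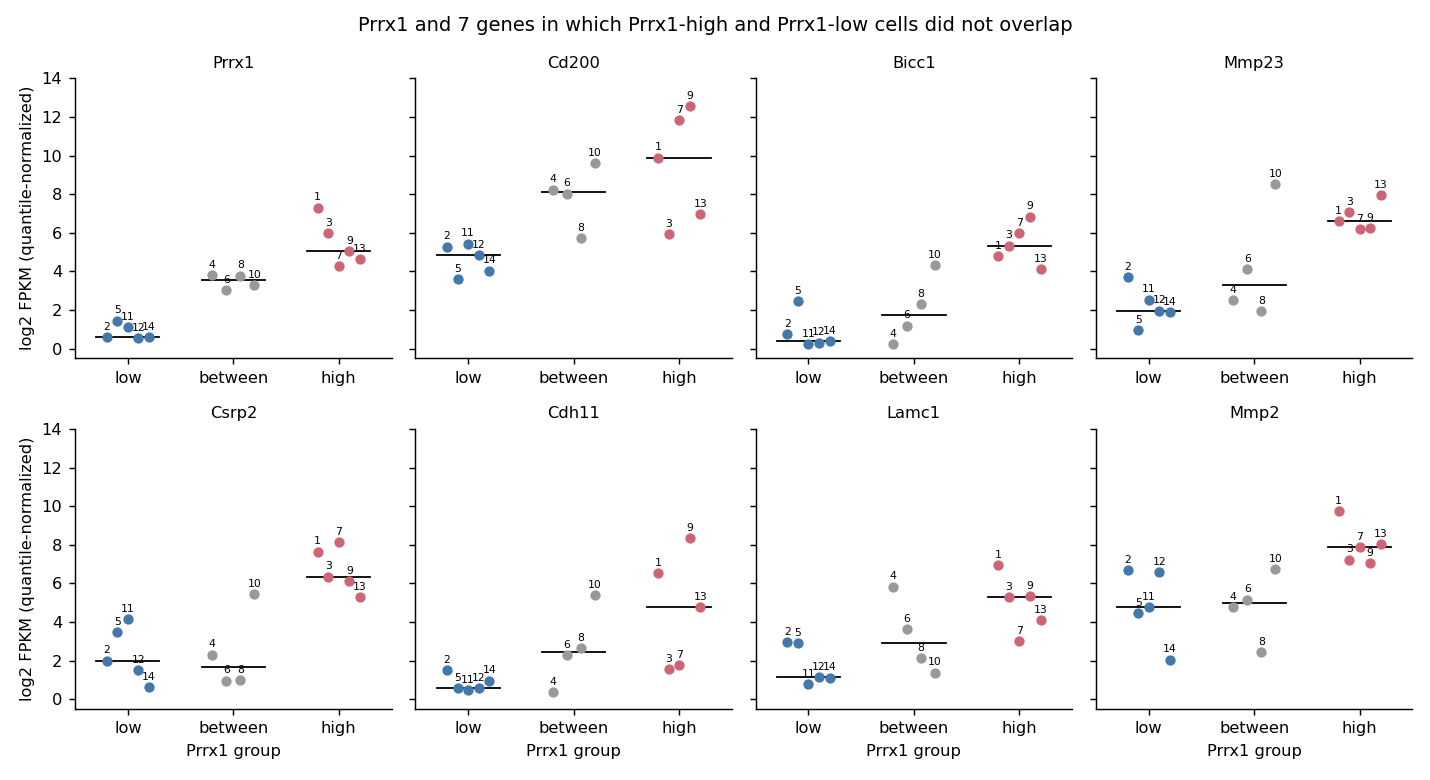
Level of Prrx1 and 7 other genes in each of the 14 cells (points, with the cell number), by Prrx1 group on the x axis and log2 quantile-normalized FPKM on the y axis. Black lines are group medians. The 7 genes were picked by hand from those called higher in Prrx1-high cells, and no gene called lower is shown. In each of the 7 genes every Prrx1-high cell lies above every Prrx1-low cell, while the 4 cells between reach into both ranges for several genes, as cell 10 does at 8.51 for Mmp23.

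A gene was called when the values of the 2 groups did not overlap and their medians were at least 1 apart. In some called genes the nearest values of the 2 groups were both below 1, where a gene is not called detected. Of 9557 rows other than Prrx1, 21 were called higher in Prrx1-high cells (0.220%) and 22 lower (0.230%). The 2 directions were thus about equal in number. How many rows another split of the same cells would call was not tested. The called genes are therefore not shown to go with Prrx1, and their values describe these cells only. At the looser limit of medians at least 1 apart, 1399 rows were higher (14.6%) and 1445 lower (15.1%), and the median difference over all rows was 0.00. The likeness of cells was also compared within and across the groups. Spearman's rho across rows had a median of 0.497 over the 10 pairs of Prrx1-high cells, 0.487 over the 10 pairs of Prrx1-low cells and 0.482 over the 25 pairs across, and the 3 ranges overlapped.

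Cells 11 and 14, both Prrx1-low, also held much leukocyte RNA. Over 22 pan-leukocyte genes the mean level was 7.18 in cell 11 and 8.25 in cell 14, against 1.23 to 2.97 in the other Prrx1-low cells and 2.30 to 4.17 in the Prrx1-high cells. Ptprc, which encodes the pan-leukocyte phosphatase CD45, was at 8.31 and 6.51 in cells 11 and 14 and at most 1.21 in the other 8 cells. Spi1, a myeloid transcription factor, was at 4.72 and 5.15 in these cells and at most 0.48 in the other 8, with 0 in 4 Prrx1-high cells and 1 Prrx1-low cell. The neutrophil granule gene Camp was above 7 in all 10 cells. Where leaving out cells 11 and 14 moves the difference of a called gene by over 1.5 times, the value without them is also given. All 21 called higher genes and 21 of the 22 called lower stayed at least 1 apart without both cells. The exception was Ppil2, whose difference went from -2.78 to -0.46.

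The called genes are described by their known roles, a grouping made by hand after the values were seen, with no count or test behind it. Of those higher in Prrx1-high cells, Cd200 had the largest difference. Cd200, a membrane glycoprotein of the immunoglobulin family used among the antigens that sort skeletal stem cells, was at 9.89, 5.93, 11.85, 12.56 and 6.96 in cells 1, 3, 7, 9 and 13. In cells 2, 5, 11, 12 and 14 it was at 5.28, 3.59, 5.44, 4.84 and 4.04. The medians differed by 5.06, with or without cells 11 and 14. Cells 7 and 9 were far above the other cells, whereas cell 3 came within 0.5 of cell 11. The 4 cells between held 8.23, 8.03, 5.72 and 9.61 and so lay above all 5 Prrx1-low cells as well.

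Cdh11 encodes cadherin-11, the adhesion molecule of mesenchymal and osteoblastic cells. It was at 6.51, 1.54, 1.78, 8.34 and 4.76 in the Prrx1-high cells, in the same order. The Prrx1-low cells held 1.52, 0.56, 0.47, 0.57 and 0.97, which gave a difference of 4.19. Cells 1, 9 and 13 stood well above all Prrx1-low cells, and cells 3 and 7 only just above cell 2. Lpp, a LIM protein of focal adhesions, was at 0.54 to 4.36 against 0.06 to 0.36. Scarf2, a scavenger receptor family gene, was at 6.12 in cell 1 and 5.47 in cell 9, with 0.71 to 2.19 in the other 3 Prrx1-high cells and at most 0.44 in the Prrx1-low cells.

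Mmp23, Mmp2 and Lamc1 act on or in the extracellular matrix. Mmp23, a membrane-anchored metalloproteinase, was at 6.60, 7.08, 6.21, 6.23 and 7.94 in the Prrx1-high cells. It was at 3.69, 0.96, 2.53, 1.96 and 1.87 in the Prrx1-low cells, a difference of 4.64. The spread was small in the Prrx1-high cells (SD 0.72), and no Prrx1-low cell came near them. Of the cells between, cell 10 exceeded all Prrx1-high cells at 8.51 and cells 4, 6 and 8 held 2.53, 4.10 and 1.94.

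Mmp2 encodes the secreted metalloproteinase gelatinase A. It was at 9.76, 7.24, 7.88, 7.04 and 8.02 in the Prrx1-high cells. In cells 2, 5, 11, 12 and 14 it was at 6.68, 4.48, 4.76, 6.59 and 2.05. The difference was 3.13 over all 10 cells and 1.29 without cells 11 and 14. Cells 2 and 12 were close below the Prrx1-high range.

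Lamc1, the laminin gamma-1 chain of basement membranes, was at 6.96, 5.30, 3.01, 5.35 and 4.11 in the Prrx1-high cells. The Prrx1-low cells held 2.97, 2.92, 0.77, 1.13 and 1.12. Its difference was 4.17, and 2.38 without cells 11 and 14. Cell 7 barely exceeded cells 2 and 5.

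Bicc1 and Csrp2 were also among the largest differences. Bicc1, an RNA-binding protein that represses translation, was at 4.80, 5.33, 6.00, 6.84 and 4.14 in the Prrx1-high cells. It was at 0.74, 2.45, 0.22, 0.30 and 0.40 in the Prrx1-low cells. The difference was 4.93, and only cell 5 of the Prrx1-low cells detected it. Csrp2, a LIM-domain protein of the actin cytoskeleton, was at 7.65, 6.35, 8.14, 6.11 and 5.30 against 2.00, 3.47, 4.14, 1.50 and 0.62, a difference of 4.35. Bicc1, Mmp23 and Csrp2 were the 3 called higher genes whose groups lay at least 1 apart at their nearest values.

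Nr4a3, an orphan nuclear receptor induced by many stimuli, was at 1.24, 5.63, 5.69, 2.12 and 3.97 in the Prrx1-high cells and below 1 in all 5 Prrx1-low cells (0.07 to 0.80). The RNA helicase gene Dhx30 was at 3.95 to 7.81 against 1.70 to 3.85. Rere, a nuclear receptor co-regulator, was at 6.42 in cell 3 and 0.97 to 2.42 in the other Prrx1-high cells, against 0.16 to 0.41. The phosphatase gene Dusp23 was at 0.66 to 4.84 against 0.00 to 0.43. For the last 2 the Prrx1-low cells did not detect the gene, and 1 or 2 Prrx1-high cells did not either.

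Lamp1, Serinc3, Bloc1s1 and Sh3gl1 encode proteins of membranes and their traffic. Lamp1, a major lysosomal membrane glycoprotein, was at 6.38, 6.01, 6.84, 7.66 and 7.35 against 2.99, 4.90, 2.70, 3.86 and 5.66, a difference of 2.97. Serinc3, a multipass membrane protein, was at 4.82 to 7.13 against 2.19 to 4.59. Bloc1s1, a subunit of complexes that position and form lysosome-related organelles, was at 8.05 to 9.40 against 5.05 to 8.0, a difference of 1.06, or 2.05 without cells 11 and 14. Sh3gl1, the endocytic protein endophilin A2, was at 4.73, 4.15, 0.97, 3.35 and 3.75 against 0.00 to 0.67.

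Usp8, a deubiquitinase acting on endosomes, was at 4.48, 5.84, 5.06, 2.65 and 0.49 in the Prrx1-high cells and at most 0.34 in the Prrx1-low cells. Cell 13 therefore did not detect it although it was called. Rnf19b, a ubiquitin ligase, was at 5.87 to 7.32 against 2.91 to 5.58. Ate1, which adds arginine to protein amino termini, was at 2.86, 2.93, 8.94, 6.03 and 8.39 against 0.04 to 1.91.

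Dnm3os, a long noncoding RNA, was called higher and was 1 of 22 rows within 2 Mb of Prrx1, where 0.220% of all rows were called higher. It lies at chr1:162217623-162225550 on the plus strand, antisense to Dnm3, and is the host of the microRNAs miR-199a and miR-214. Its level was 3.48, 1.31, 2.06, 2.30 and 1.74 in the Prrx1-high cells and 1.30, 0.02, 0.00, 1.02 and 0.00 in the Prrx1-low cells. Its difference was 2.04, and 1.03 without cells 11 and 14. Cell 3 exceeded cell 2 by only 0.0048, the smallest gap between the groups among the genes called higher. Cell 6, between the limits, held the highest value by far at 9.20. Dnm3 itself was at 6.58 in cell 1 and at most 0.63 in the other 9 cells of the contrast, and was not called. The sources used here do not say whether reads were counted by strand. Whether reads of 1 of the 2 overlapping genes were counted for the other was not examined.

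The 4 mature microRNAs that RefSeq (GRCm38.p6) places inside Dnm3os are shown because its transcript is their precursor. The capitals mark the seed, bases 2 to 8, and the 4 seeds all differ. The table does not measure mature microRNAs.
mmu-miR-199a-5p, chr1:162217844-162217866, plus strand: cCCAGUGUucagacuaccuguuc
mmu-miR-199a-3p, chr1:162217883-162217904, plus strand: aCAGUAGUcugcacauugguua
mmu-miR-214-5p, chr1:162223397-162223418, plus strand: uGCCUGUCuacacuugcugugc
mmu-miR-214-3p, chr1:162223438-162223459, plus strand: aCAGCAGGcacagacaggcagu

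Of the other neighbours of Prrx1, Selp, which encodes the adhesion molecule P-selectin, was higher by 1.11 without being called. Prdx6, Vamp4, Nme7 and Dpt were lower by at least 1. The nearest neighbour, Gorab, had a median of 0.00 in both groups, so its difference of 0.00 does not show equal expression. With 2 of 22 rows higher and 4 lower by at least 1, against 14.6% and 15.1% of all rows, the neighbours were near the shares of all rows.

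**Figure D2:**
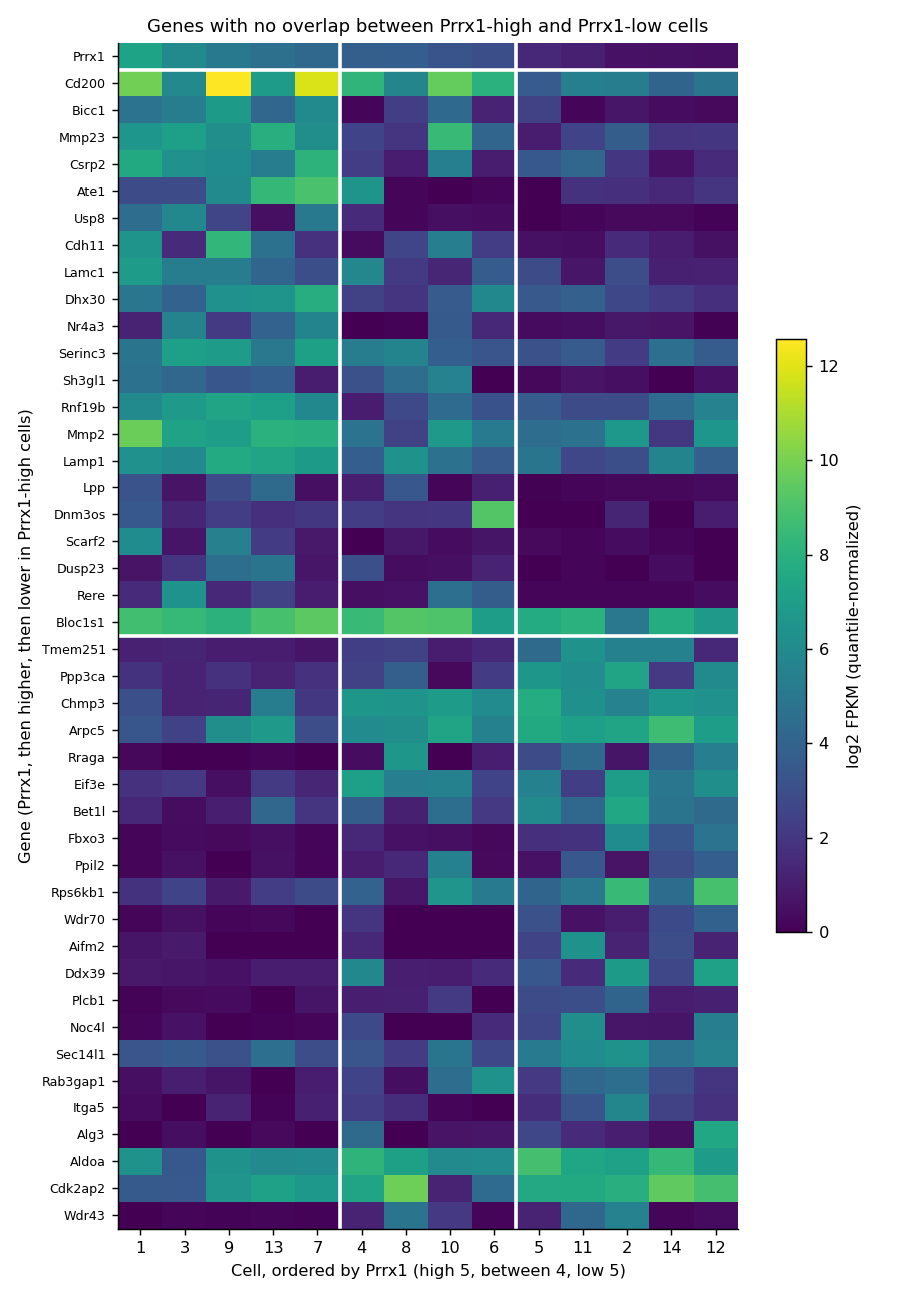
Level of Prrx1 and the 43 called genes (rows) in the 14 cells (columns), with cells ordered by Prrx1 and colour giving log2 quantile-normalized FPKM from 0. White lines separate the 5 Prrx1-high, 4 between and 5 Prrx1-low cells, and the 21 genes called higher from the 22 called lower. The outer blocks differ by construction, and the middle block holds both low and high values.

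Among the genes lower in Prrx1-high cells, Tmem251 and Ppp3ca had the largest differences. Tmem251, needed for the mannose 6-phosphate tagging of lysosomal enzymes, was at 1.15, 1.31, 0.72, 1.0 and 0.97 in the Prrx1-high cells. It was at 5.54, 4.33, 6.48, 1.38 and 5.53 in the Prrx1-low cells, a difference of -4.53. Cell 12 was close to the Prrx1-high cells and the other 4 were far above.

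Ppp3ca, a catalytic subunit of the calcium-dependent phosphatase calcineurin, was at 1.85, 1.26, 1.79, 1.77 and 1.20 in the Prrx1-high cells. It was at 7.34, 6.66, 6.17, 5.98 and 2.07 in the Prrx1-low cells. The difference was -4.40 and -4.89 without cells 11 and 14, and the gene was low throughout the Prrx1-high cells (SD 0.32) and high in 4 of 5 Prrx1-low cells. Plcb1, a phospholipase C of G protein signalling, was at 0.00 to 0.69 against 1.02 to 4.04.

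Chmp3, a subunit of the ESCRT-III membrane-scission complex, was at 3.07, 1.19, 2.01, 1.28 and 5.35 against 5.59, 7.78, 6.32, 6.36 and 6.61, a difference of -4.35. In the cells between it was at 6.06 to 6.94, within the Prrx1-low range. Bet1l, a Golgi SNARE, was at 0.42 to 4.15 against 4.19 to 7.48. Sec14l1, a lipid-transfer family protein, was at 2.98 to 4.60 against 4.78 to 6.43. Rab3gap1, a regulator of Rab GTPases, was at 0.01 to 1.07 against 1.94 to 4.55, a difference of -2.23, or -1.34 without cells 11 and 14.

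Arpc5, a subunit of the actin-nucleating Arp2/3 complex, was at 3.34, 2.42, 2.95, 6.19 and 6.73 against 7.36, 7.61, 7.09, 6.99 and 8.67. Its difference was -4.01, and cell 13 came close to cell 12. Itga5, the alpha chain of the fibronectin receptor, was at 0.37, 0.00, 1.08, 1.21 and 0.12 against 5.79, 1.63, 3.26, 1.78 and 2.44. Every Prrx1-low cell thus detected Itga5, and 3 of 5 Prrx1-high cells did not.

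Rraga, Rps6kb1 and Eif3e act in nutrient sensing and translation. Rraga, a Rag GTPase that brings mTORC1 to the lysosome, was at 0.00 in cells 3, 7 and 9 and at 0.27 and 0.19 in cells 1 and 13. It was at 0.70, 2.92, 4.35, 5.39 and 3.99 in the Prrx1-low cells, a difference of -3.99. Rps6kb1, the S6 kinase downstream of mTORC1, was at 1.86, 2.53, 2.94, 0.93 and 2.29 against 8.46, 4.04, 5.02, 8.89 and 4.44, a difference of -2.73, or -6.17 without cells 11 and 14. Eif3e, a translation initiation factor subunit, was at 1.80, 2.11, 1.33, 0.53 and 2.11 against 6.99, 5.51, 2.35, 6.23 and 4.91, a difference of -3.70. Of the cells between, cell 8 held Rraga at 6.64 and cell 10 at 0.00, so they spanned both groups.

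Ddx39, Noc4l, Wdr43 and Ppil2 were low in the Prrx1-high cells. Ddx39, an RNA helicase of mRNA export, was at 0.60 to 1.02 against 6.87, 3.40, 1.56, 7.18 and 2.67, a difference of -2.55, or -6.02 without cells 11 and 14. The nucleolar genes Noc4l and Wdr43 were at most 0.60 and 0.18 in Prrx1-high cells. Their Prrx1-low ranges were 0.71 to 6.20 and 0.19 to 5.55, so in Wdr43 the groups met almost at their edges. Ppil2, a cyclophilin-like ubiquitin ligase, was at 0.00 to 0.56 against 0.63 to 3.75.

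Fbxo3, a substrate receptor of ubiquitin ligases, was at 0.17 to 0.51 against 6.09, 1.70, 1.82, 4.79 and 3.35, a difference of -3.04. Fbxo3 and Rps6kb1 were the 2 called lower genes whose groups lay at least 1 apart at their nearest values. Aifm2, an oxidoreductase that limits lipid peroxidation, was at 0.00 to 0.92 against 1.26 to 6.45, a difference of -2.59, or -1.26 without both cells. Wdr70 was at 0.00 to 0.58 against 0.63 to 3.88. Alg3, a mannosyltransferase of N-glycan synthesis, was at most 0.45 against 0.53 to 7.55, a difference of -1.49, or -2.67 without both cells.

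Aldoa and Cdk2ap2, both detected in all 14 cells, differed less. The glycolytic enzyme gene Aldoa was at 6.47, 3.48, 6.04, 6.47 and 5.94 against 7.19, 8.84, 7.44, 6.88 and 8.39, a difference of -1.40. Cdk2ap2 was at 3.51 to 7.21 against 7.56 to 9.50, a difference of -1.32. Lpp, Dnm3os, Scarf2, Dusp23, Rere and Bloc1s1 among the higher genes, and Rps6kb1, Rab3gap1, Itga5, Alg3, Aldoa, Cdk2ap2 and Wdr43 among the lower, were named after their values were seen, to complete the 2 sets.

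The 4 cells between the limits were not used to choose the called genes. Their median lay between the 2 group medians in 14 of the 21 called higher genes and in 15 of the 22 called lower. Over all rows with medians at least 1 apart it did so in 54.7% of those higher and 53.7% of those lower. The called genes had median differences of 3.35 and -2.60, and these rows were not matched to them in size of difference. The shares therefore cannot show whether called genes follow Prrx1 across the cells between. When all 14 cells were split into the 7 with the highest Prrx1 and the other 7, 1 of the 21 higher genes (Serinc3) and 1 of the 22 lower (Rps6kb1) still had no overlap. Of the 21 higher genes, 15 were detected in all 5 Prrx1-high cells and 7 in no Prrx1-low cell. Of the 22 lower genes, 16 were detected in all 5 Prrx1-low cells and 9 in no Prrx1-high cell. These counts follow in part from how the genes were called, and no share over all rows was computed beside them.

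Genes were also ranked by Spearman's rho with Prrx1 over all 14 cells, among the 4833 rows detected in at least 7 cells. The points share 1 normalization and no depth is known, so rho is a description. The same Prrx1 values chose the groups, so called genes tend to rank near the ends by construction. Their rho is not a second line of evidence. Among the highest were Lamc1 (0.82), Medag (0.82), Azin1 (0.80), Creb3l1 (0.77), Cd200 (0.75), Bicc1 (0.75) and Csrp2 (0.75). Medag, first described in adipogenesis, was at 6.83, 6.54, 4.95, 6.26 and 4.13 in the Prrx1-high cells and at 2.09, 4.39, 1.71, 0.81 and 0.69 in the Prrx1-low cells. Only cell 5 exceeded the lowest Prrx1-high cell, cell 13. Azin1, which raises polyamine synthesis by binding antizyme, was at 5.61, 8.30, 5.34, 7.32 and 5.68 against 1.49, 3.27, 5.50, 1.39 and 4.49.

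Creb3l1, a membrane-bound transcription factor of secretory cells including osteoblasts, was at 4.09, 4.84, 0.00, 3.06 and 4.57 against 0.17, 1.25, 0.50, 0.00 and 0.00, with cell 7 alone of the Prrx1-high cells at 0. The lowest were Ddx39 (-0.84), Bet1l (-0.79), Ddit3 (-0.78) and Oscp1 (-0.77). Ddit3, the stress-induced transcription factor CHOP, was at 2.22, 3.22, 2.64, 0.81 and 6.39 against 6.24, 6.89, 7.83, 7.02 and 7.84. Cell 13 alone of the Prrx1-high cells reached the Prrx1-low range.

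The paralogue Prrx2 (chr2:30834972-30881251, plus strand) did not separate the groups. It was at 9.68, 0.64, 1.87, 3.36 and 6.30 in the Prrx1-high cells and at 3.14, 4.13, 0.00, 0.00 and 1.38 in the Prrx1-low cells. The difference of 1.98 was 0.22 without cells 11 and 14. Cells 1 and 13 were the highest, and cell 3 had little Prrx2 although its Prrx1 was second highest.

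**Figure D3:**
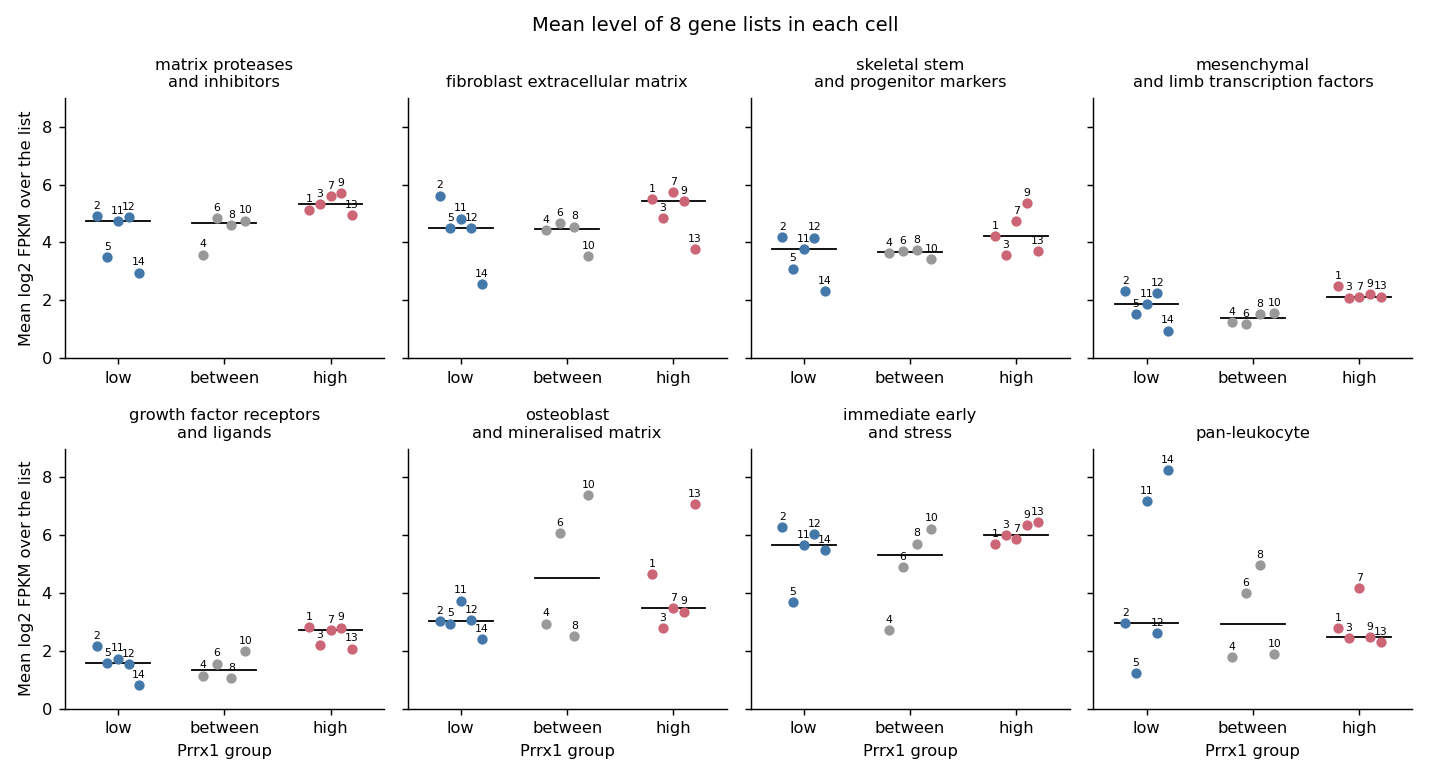
Mean level over the genes of 8 lists (y axis, mean log2 quantile-normalized FPKM) in each cell (points, with the cell number), by Prrx1 group on the x axis, with group medians as black lines. The matrix protease list is the 1 list whose Prrx1-high cells (4.94 to 5.72) all lie above the Prrx1-low cells (2.96 to 4.91), and the pan-leukocyte list shows cells 11 and 14 far above the rest.

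Gene lists put these genes beside others of like function. A list's level is the mean over its rows in a cell, and a row is counted as higher or lower when its medians were at least 1 apart, as in 14.6% and 15.1% of all rows. The level did not overlap between groups in 1 of 31 lists, matrix proteases and inhibitors. Its 32 rows gave 15 higher and 0 lower, with a median row difference of 0.83. Without cells 11 and 14 the counts were 13 higher and 3 lower, against 14.8% and 18.7% of all rows. Without Mmp2 and Mmp23, which were called, the list's level overlapped, with a lowest Prrx1-high cell at 4.74 and a highest Prrx1-low cell at 4.93. Serpinf1, an antiangiogenic serpin, was at 11.52, 9.45, 12.06, 10.44 and 12.01 against 10.13, 9.07, 9.29, 9.21 and 4.29. Ctsl, the protease cathepsin L, was at 7.92 to 9.75 against 5.78 to 8.98, and the inhibitor gene Timp1 at 4.56 to 11.02 against 3.26 to 12.39.

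Extracellular matrix genes had the largest count of higher rows, and this count moved with the leukocyte-rich cells. Of 64 fibroblast matrix rows, 34 were higher and 9 lower, with a median row difference of 1.32. Without cells 11 and 14 these were 27 and 13, with a median of 0.25. Decorin (Dcn), a collagen-binding proteoglycan, was at 12.96, 13.82, 14.58, 13.82 and 12.28 against 14.58, 10.24, 12.28, 13.56 and 7.04, and its difference went from 1.54 to 0.26. Mgp, an inhibitor of calcification, differed by 0.22 and Vim, the mesenchymal intermediate filament, by -0.03. Collagen processing genes gave 13 higher and 6 lower of 33, and 9 and 11 without both cells. P4hb, a subunit of collagen prolyl hydroxylase, was at 5.89 to 11.30 against 8.99 to 10.53.

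The list of skeletal stem and progenitor markers had 7 of 26 rows higher and 0 lower, and 6 and 2 without cells 11 and 14. Apart from Cd200 and Cdh11 its abundant members overlapped widely. Ly6a, which encodes Sca-1, was at 6.40, 11.60, 12.14, 11.21 and 7.25 against 11.55, 10.75, 10.67, 9.17 and 7.22, with cells 1 and 13 about as low as cell 14. The tetraspanin genes Cd9, Cd63 and Cd81 differed by 0.23, -0.44 and 0.57. Without the 2 called genes the list's level differed by 0.03.

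Mesenchymal and limb transcription factors, the class to which Prrx1 belongs, were mixed in direction. Of 43 rows 8 were higher and 5 lower, and without cells 11 and 14 these became 5 and 8. The level was at 2.09 to 2.49 in Prrx1-high cells and 0.96 to 2.33 in Prrx1-low cells, where cells 2 and 12 overlapped with the Prrx1-high cells. Zeb2, a zinc finger repressor, was at 6.16, 3.66, 1.80, 8.67 and 4.45 against 6.11, 0.23, 1.55, 8.57 and 8.48. Klf4, a Krüppel-like factor, differed by 1.19 and by 0.37 without both cells.

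Lineage genes of bone and cartilage were uneven within the Prrx1-high cells. The osteoblast list had 9 of 24 rows higher and 0 lower, and 9 and 2 without cells 11 and 14. Its level was 7.09 in cell 13 against 2.78 to 4.68 in the other Prrx1-high cells and 2.41 to 3.74 in the Prrx1-low cells. Col1a1, a chain of type I collagen, was at 9.45, 5.21, 7.36, 9.11 and 12.96 against 5.48, 8.45, 7.55, 6.10 and 6.45. Sparc, a collagen-binding matrix protein of bone, was at 14.58, 8.97, 12.56, 12.96 and 13.82 against 9.92, 11.49, 9.07, 12.65 and 7.68, and cell 3 was the Prrx1-high cell that was low in both. Sox9, the master factor of cartilage, was at 5.66, 4.58, 4.35, 2.93 and 4.47 against 0.47, 3.96, 0.14, 4.10 and 0.00. Its difference of 4.0 was 0.52 without cells 11 and 14.

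Adipogenic genes gave 4 of 14 higher and 0 lower, and 5 and 0 without both cells. Cebpb, an early adipogenic transcription factor, was at 2.00, 5.45, 6.16, 6.89 and 6.93 against 1.40, 0.21, 6.55, 3.57 and 5.72. Chad, a cartilage matrix protein, was at 8.66, 0.00, 9.43, 1.29 and 3.87 against 0.00 to 2.50, so 2 of the Prrx1-high cells lay within the Prrx1-low range.

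Growth factor receptors and ligands gave 9 higher and 1 lower of 30 rows, and 9 and 6 without cells 11 and 14. The level was at 2.08 to 2.81 against 0.81 to 2.17, with cell 2 alone reaching the Prrx1-high range. Igf1, a growth factor for bone cells, was at 9.74, 2.44, 10.28, 7.11 and 2.24 against 2.48, 1.13, 0.88, 0.11 and 1.68. The difference of 5.98 exceeded that of every called gene, but cells 3 and 13 fell just below cell 2 and the gene was not called. Pdgfra, a receptor of mesenchymal progenitors, was at 4.42, 1.85, 4.58, 6.23 and 5.36 against 1.48, 0.93, 6.55, 5.85 and 0.41. Fgfr1, a fibroblast growth factor receptor, was at 1.57 to 7.20 against 1.21 to 6.91.

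The signalling lists are given by their counts. BMP and TGF-beta signalling gave 7 higher and 3 lower of 34, Wnt signalling 4 and 0 of 29, and Notch and Hedgehog signalling 4 and 0 of 13. Without cells 11 and 14 the counts were 9 and 4, 4 and 1, and 3 and 2. Ctnnb1, the Wnt effector beta-catenin, was at 3.63, 1.09, 4.79, 5.16 and 5.76 against 0.27, 1.86, 0.68, 4.62 and 0.59. Gas1, a Hedgehog co-receptor, was at 5.32, 6.07, 6.24, 1.78 and 1.29 against 1.46, 0.28, 1.17, 7.12 and 0.79. In both genes cell 12 was the Prrx1-low cell with a high value. Id3, a target of BMP signalling, was at 8.53 to 11.21 in the Prrx1-high cells and at 2.56 in cell 5 and 3.53 in cell 14, with 8.90 to 10.46 in the other 3 Prrx1-low cells.

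**Figure D4:**
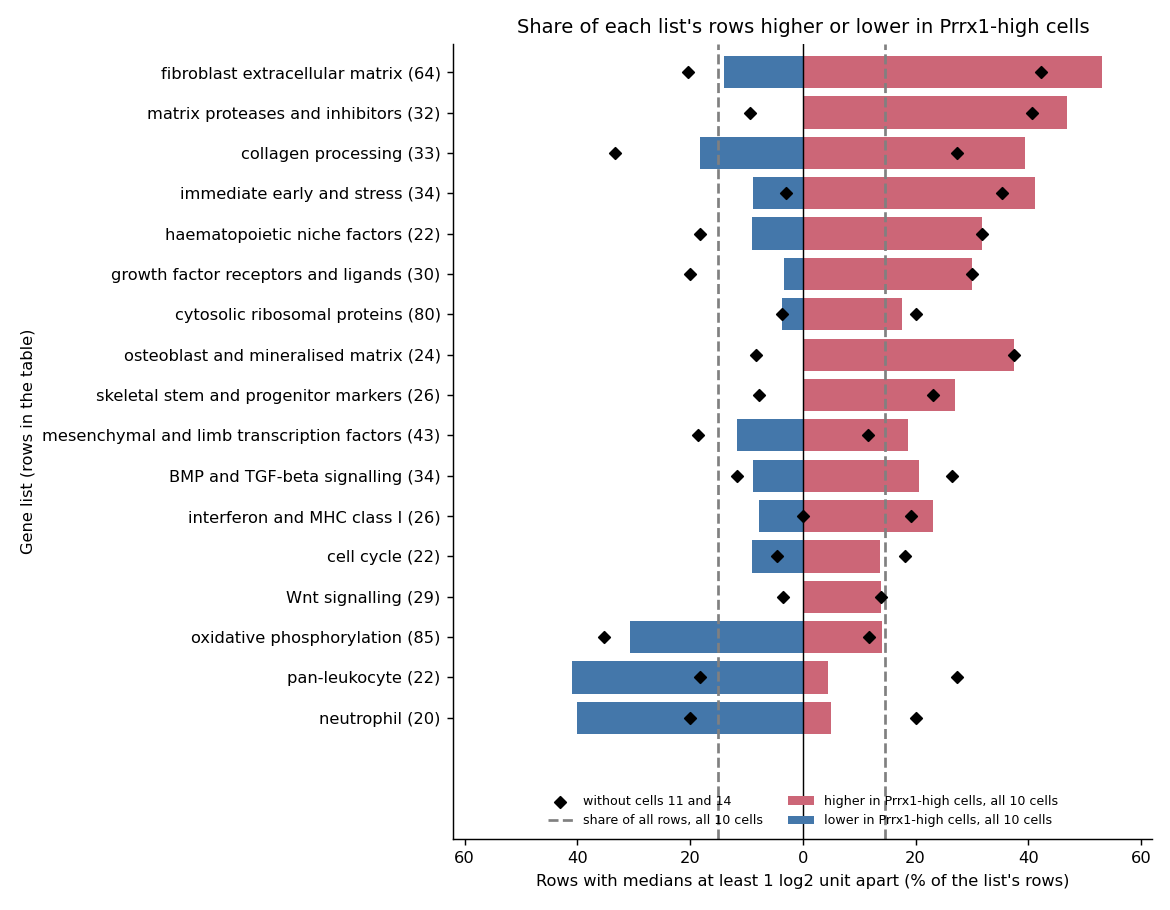
Share of each list's rows (x axis, % of the list's rows in the table) whose medians were at least 1 higher (red, right) or lower (blue, left) in Prrx1-high cells, for the 17 lists with 20 or more rows (row number in brackets on the y axis). Diamonds give the shares without cells 11 and 14 and dashed lines the shares of all rows (14.6% and 15.1%). The pan-leukocyte and neutrophil lists change most between bars and diamonds.

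Immediate early and stress genes gave 14 higher and 3 lower of 34, and 12 and 1 without cells 11 and 14. Fos, an AP-1 subunit, was at 11.70, 6.72, 12.01, 10.71 and 10.81 against 8.36, 6.80, 5.42, 10.99 and 8.68. Cell 3 and cell 12 were the exceptions to the difference of 2.44. Cytosolic ribosomal protein genes gave 14 higher and 3 lower of 80, and 16 and 3 without both cells.

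Of the 17 lists with 20 or more rows, oxidative phosphorylation and the 2 leukocyte lists had more rows lower than higher. Of 85 oxidative phosphorylation rows 12 were higher and 26 lower, and 10 and 30 without cells 11 and 14, against 14.8% and 18.7% of all rows. Its level was at 6.13 to 7.43 in the Prrx1-high cells and 5.22 to 8.25 in the Prrx1-low cells, so the Prrx1-low cells enclosed the others. Cox6b1, a cytochrome c oxidase subunit, was at 9.17, 9.60, 11.43, 11.28 and 10.69 against 9.32, 12.77, 10.90, 11.85 and 11.28.

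Leukocyte genes leaned lower in Prrx1-high cells with cells 11 and 14 in the contrast and not without them. The pan-leukocyte list gave 1 higher and 9 lower of 22, and 6 and 4 without cells 11 and 14. Neutrophil genes gave 1 and 8 of 20, and 4 and 4 without them. Tyrobp, an adaptor of myeloid receptors, was at 5.20, 5.07, 9.09, 6.90 and 5.74 against 5.99, 3.46, 12.14, 3.84 and 12.65. Cell 7 was the Prrx1-high cell with the most of this RNA. Haematopoietic niche factors, the stromal signals that hold blood progenitors, gave 7 higher and 2 lower of 22, and 7 and 4 without cells 11 and 14. Ccl7, a monocyte chemokine of that list, was at 3.29, 10.19, 3.82, 9.29 and 4.84 against 9.48, 7.81, 4.60, 3.23 and 2.11, so high and low cells occurred in both groups. Interferon and MHC class I genes gave 6 and 2 of 26, and 5 and 0 without both cells. Cell cycle genes gave 3 and 2 of 22, and 4 and 1 without both cells. Endothelial, smooth muscle and Schwann genes differed in level by -0.27, -0.33 and 0.28.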

How the data were processed

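The deposited table holds 1 value per gene row for each of 14 single cells, from SMART-Seq v4 3' DE and Nextera XT libraries, per the labels' protocols. The submitters' processing notes name TopHat2, Cufflinks and GRCm38, without version or role. The deposited values are on a log2 scale, read from the values as log2(FPKM + 1) after quantile normalization; no source records these steps. Nearly equal distributions hide differences in RNA amount or depth, and FPKM divides by length although a 3' kit does not. Left over were 0 value columns.

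Cells were grouped by Prrx1 (4 or more, below 2). The group median, range and difference were computed per row with Python 3.11.15, pandas 2.3.3, numpy 2.4.6 and scipy 1.17.1, checked on simulated data. Coordinates are GENCODE M21 (GRCm38), and sequences RefSeq. No test was made, since the cells count as 1 sample. The members and the gene lists were chosen with earlier results of these data known.

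Named genes are Prrx1 and Prrx2, the called members of each list and a selection from up to 4 others with the highest mean over the cells, the 15 called rows per direction with the largest difference (no ribosomal, mitochondrial, predicted or small RNA symbols, a pattern that also removed Rps6kb1), and the 8 highest and 4 lowest by rho, of which 1 is not reported here. Alternatives were other Prrx1 limits, leaving out cells, 2 sets of cells by which rows are at 0 (9 and 5 cells), log2(FPKM + 10), means for medians, other minimum differences, and rows detected in at least 5 cells.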

Additional observations from a re-analysis of the deposited data

Results flagged for a closer look

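Single cells far from the other 4 of their group were looked for in 130 groups of 5 values, over the list levels and the called genes. Chance flags about 1 in 20 such groups, and 8 were found.

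Among list levels, cell 1 stood at 3.99 for tendon and ligament genes, above the next Prrx1-high cell at 2.53. Cell 7 stood at 4.17 for pan-leukocyte genes, above the next Prrx1-high cell at 2.79. Cell 11 stood at 1.43 for Schwann and neural genes, below the next Prrx1-low cell at 2.28.

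Among called genes, Bicc1 was at 2.45 in cell 5, and the next Prrx1-low cell held 0.74. Ate1 was at 0.042 in the same cell, below the next at 1.43. Ppp3ca was at 2.07 in cell 14, where the next Prrx1-low cell held 5.98. In cell 3, Aldoa was at 3.48, below the next Prrx1-high cell at 5.94, and Rere was at 6.42, above the next at 2.42.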

How the results depend on the processing

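The number of genes without overlap depended on which cells were compared, and fewer cells per group raise it by construction. Against 21 higher and 22 lower, there were 228 and 239 with Prrx1 at 5 or more against below 1, 52 and 96 without cells 11 and 14, 248 and 256 within the 9-cell set (3 against 3 cells), 980 and 939 within the 5-cell set (2 against 2), and 1 and 1 with 7 cells against 7. Leaving out each cell in turn gave 27 to 50 higher and 36 to 61 lower. Rows with medians at least 1 apart numbered 2286 higher and 2305 lower in the 5-cell set. Other minimum differences and the filter on low rows left both counts within 1.5 times.

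For list levels, some differences moved by more than the spread between cells. In the 9-cell set it was 0.70 for limb transcription factors (0.27 over all 10 cells), 1.64 for stem and progenitor markers (0.43) and 2.11 for matrix proteases (0.59). In the 5-cell set it was -0.35 for fibroblast matrix (0.94), opposite in sign. For growth factor receptors and ligands (1.15) it was 0.62 with 7 cells against 7, 0.50 in the 5-cell set, 0.65 on log2(FPKM + 10) and 1.80 with detected rows only. Without cells 11 and 14 the limb transcription factors were at -0.13, a move within the spread. Without these cells Wnt signalling went from 0.80 to -0.05, Notch and Hedgehog signalling from 0.89 to 0.02 and adipogenic genes from 0.28 to 1.01. Chondrocyte genes went from 2.54 to -0.08 with 7 cells against 7. Over all lists and settings, 36 differences moved beyond the spread and 523 did not. Single genes moved in 56 and did not in 589.

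No paired analysis was possible because the cells belong to 1 labelled group. The cells come from an unstated number of mice, depth is unknown, and a value of 0 cannot be told apart from a transcript that was not captured.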
